A study of Mus musculus with 4 samples.

Results

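The proneural basic helix-loop-helix (bHLH) genes examined here were Neurog1, Neurog2, Neurog3, Neurod1, Neurod2, Neurod4, Neurod6, Atoh1 and Ascl2, 9 of the 21938 protein-coding genes of the annotation. They were chosen by name, with earlier results of these data known, so the shares of all genes given beside their counts are a description. Their rows were looked up in the authors' annotated peak tables, and every peak lying in 1 of these genes or within 20 kb of it was added. The peaks came from CUT&RUN, in which a nuclease tethered by an antibody cuts out the DNA around a chromatin mark for sequencing. The mark was H3K27me3, trimethylated lysine 27 of histone H3, in yolk sac erythro-myeloid progenitors (EMPs) of C57BL/6 mice at E10.5. The study sorted EMPs as KIT+CD41+CD16/32+ cells, and profiled the mark to find genes that Ezh2 may control in them.

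Of the 4 libraries, an H3K27me3 and an IgG library came from 500 EMPs, and another such pair came from 15000 EMPs in a separate experiment. There was thus 1 H3K27me3 library per cell number, and no value below has a replicate error or a test. All cells carried the same genotype label, which gives Ezh2fl/fl and Tie2-Cre+/+ beside the words wild type, and the study describes them as wild-type EMPs. Tie2-Cre is active in endothelium and in the blood cells that arise from it. How many embryos stood behind a library was not given in the sources used here. PCR cycles (17 for 500 EMPs, 16 for 15000 EMPs), read length (76 and 59 bp), sequencing instrument and the threshold of the peak caller (p of 0.01 and 0.05) changed together with the cell number and cannot be told apart from it. The files used here hold peak positions without reads, scores or heights, so sequencing depth cannot be read from them. The study's reporting summary states that the 500-EMP library was sequenced less deeply and that a much smaller share of its reads aligned. This gap in aligned reads is large and bears on every difference between the libraries below. Of the cell type markers, 0 of 7 EMP marker genes (Kit, Itga2b, Fcgr3, Runx1, Gata1, Spi1 and Myb) had a peak within 3 kb in either library, nor had any of the 3 macrophage markers Csf1r, Adgre1 and Cx3cr1. Of 4 endothelial markers, Kdr had a peak with 15000 EMPs and none had one with 500. Of the primitive erythroid markers, Hba-x had a peak in both libraries and Hbb-bh1 in neither. The same limit was met by 9.78% of all protein-coding genes with 500 EMPs and 16.8% with 15000 EMPs, so lists this short are no check of the cell type, and a peak list does not measure expression.

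Proneural factors pair with E proteins, bind the E-box CANNTG and switch on programmes of neuronal or endocrine differentiation. They raise Notch ligands on the cell that expresses them, and Notch signalling in the neighbouring cell induces Hes and Hey repressors that silence the same proneural genes. H3K27me3 is laid down by Polycomb repressive complex 2, whose catalytic subunit is Ezh2, mostly over CpG-rich starts of developmental regulators that are silent in a given tissue. The factors are best known from the nervous system, the endocrine pancreas, the gut and the trophoblast, and not from blood.

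The starts of these genes differ in their CpG content, and the stretches before 5 of them are printed below. Each stretch is the 250 bases before the gene start, 5′ to 3′ on the gene's own strand in the reference genome GRCm38, with CpG dinucleotides in capitals. The stretch before Neurog1, the richest in CpG of the members with 27, lay under a peak with 500 EMPs and not with 15000 EMPs. The stretches before Ascl2 (19 CpGs) and Atoh1 (14 CpGs) lay wholly under a peak with 15000 EMPs and under none with 500 EMPs. The same held before Neurog3 (18 CpGs), Neurod1 (14 CpGs), Neurod2 (11 CpGs) and Neurog2 (8 CpGs), which are not printed. Those before Neurod4 (4 CpGs) and Neurod6 (3 CpGs) lay under no peak in either library. The median over all protein-coding genes was 8 CpGs.
Neurog1, chr13:56252164-56252413, minus strand: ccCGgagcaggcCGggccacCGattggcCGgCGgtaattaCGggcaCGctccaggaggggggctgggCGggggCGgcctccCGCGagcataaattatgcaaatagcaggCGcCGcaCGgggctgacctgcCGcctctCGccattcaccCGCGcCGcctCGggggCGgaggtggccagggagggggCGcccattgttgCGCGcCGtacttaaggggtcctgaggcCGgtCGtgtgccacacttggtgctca
Ascl2, chr7:142969265-142969514, minus strand: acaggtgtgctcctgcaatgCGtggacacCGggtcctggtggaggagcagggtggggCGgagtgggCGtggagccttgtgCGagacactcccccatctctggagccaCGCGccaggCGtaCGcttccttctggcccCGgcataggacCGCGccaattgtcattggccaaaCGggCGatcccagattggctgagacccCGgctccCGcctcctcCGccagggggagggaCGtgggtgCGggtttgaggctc
Atoh1, chr6:64728875-64729124, plus strand: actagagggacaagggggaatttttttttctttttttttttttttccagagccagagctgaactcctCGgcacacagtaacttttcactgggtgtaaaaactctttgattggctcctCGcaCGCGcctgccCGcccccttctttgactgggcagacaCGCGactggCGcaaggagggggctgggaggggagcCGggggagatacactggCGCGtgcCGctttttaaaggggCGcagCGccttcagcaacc
Neurod4, chr10:130280241-130280490, minus strand: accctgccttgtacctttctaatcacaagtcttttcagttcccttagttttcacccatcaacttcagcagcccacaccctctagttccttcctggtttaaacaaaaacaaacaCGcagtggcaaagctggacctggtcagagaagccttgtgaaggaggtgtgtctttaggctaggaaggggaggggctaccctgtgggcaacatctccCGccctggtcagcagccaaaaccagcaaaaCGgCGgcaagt
Neurod6, chr6:55681264-55681513, minus strand: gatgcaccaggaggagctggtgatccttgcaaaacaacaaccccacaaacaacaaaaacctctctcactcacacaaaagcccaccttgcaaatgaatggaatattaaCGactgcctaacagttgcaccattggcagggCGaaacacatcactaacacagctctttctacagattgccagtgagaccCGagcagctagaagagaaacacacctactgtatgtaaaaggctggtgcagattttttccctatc

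A peak within 3 kb, by the distance column of the authors' tables, was present at 7 of the 9 genes with 500 EMPs and at 8 of 9 with 15000 EMPs. Across all protein-coding genes the same count was 9.78% with 500 EMPs and 16.8% with 15000 EMPs. The genes without such a peak were Neurod4 in both libraries and Neurod6 with 500 EMPs. The same genes were counted when the limit was widened to the gene and 20 kb around it, where the share of all genes was 18.6% with 500 EMPs and 30.1% with 15000 EMPs. Among these counts of genes, the libraries differed most in the starts that lay under a peak. With 500 EMPs only the start of Neurog1 lay under a peak, 1 of 9 genes against 1.40% of all genes, whereas with 15000 EMPs the starts of Neurog2, Neurog3, Neurod1, Neurod2, Atoh1 and Ascl2 did, 6 of 9 against 8.63%.

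**Figure D1:**
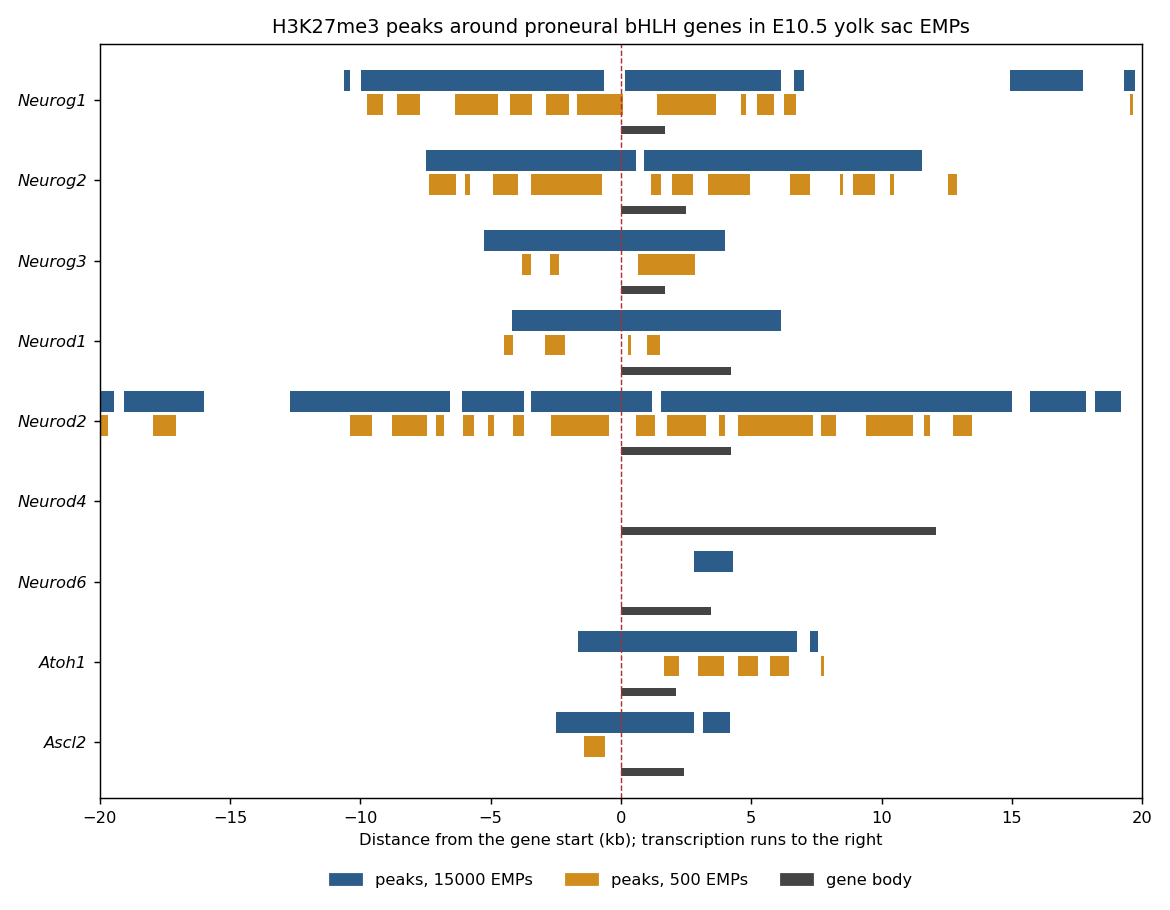
H3K27me3 peaks (blue, 15000 EMPs; orange, 500 EMPs) and gene bodies (grey) over 20 kb on either side of the start of each of the 9 genes, with transcription running to the right. Peaks cluster at 7 genes, Neurod6 has 1 peak at its 3′ end with 15000 EMPs, and Neurod4 has none.

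To set genes of different length on 1 scale, the length under a peak was measured within 3 kb of each start, a window of 6001 bp. The median over the 9 genes was 1461 bp with 500 EMPs and 5286 bp with 15000 EMPs, while the median over all protein-coding genes was 0 bp in both. Among the 2177 genes with any covered base in this window with 500 EMPs the median was 789 bp and the 90th percentile 2850 bp. Among the 3728 such genes with 15000 EMPs they were 2743 bp and 5406 bp. With 500 EMPs the order from most to least covered was Neurog1 (4254 bp), Neurod2 (4211 bp), Neurog2 (3468 bp), Neurog3 (2526 bp), Neurod1 (1461 bp), Ascl2 (796 bp) and Atoh1 (608 bp), with Neurod4 and Neurod6 at 0 bp. With 15000 EMPs it was Neurog3 and Neurod1 (6001 bp, the whole window), Neurog2 (5694 bp), Neurod2 (5658 bp), Ascl2 (5286 bp), Neurog1 (5210 bp), Atoh1 (4650 bp), Neurod6 (198 bp) and Neurod4 (0 bp). The 7 covered genes thus spread over a wide range with 500 EMPs and lay close to the full window with 15000 EMPs. Without replicates no 2 neighbours in either order can be said to differ.

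**Figure D2:**
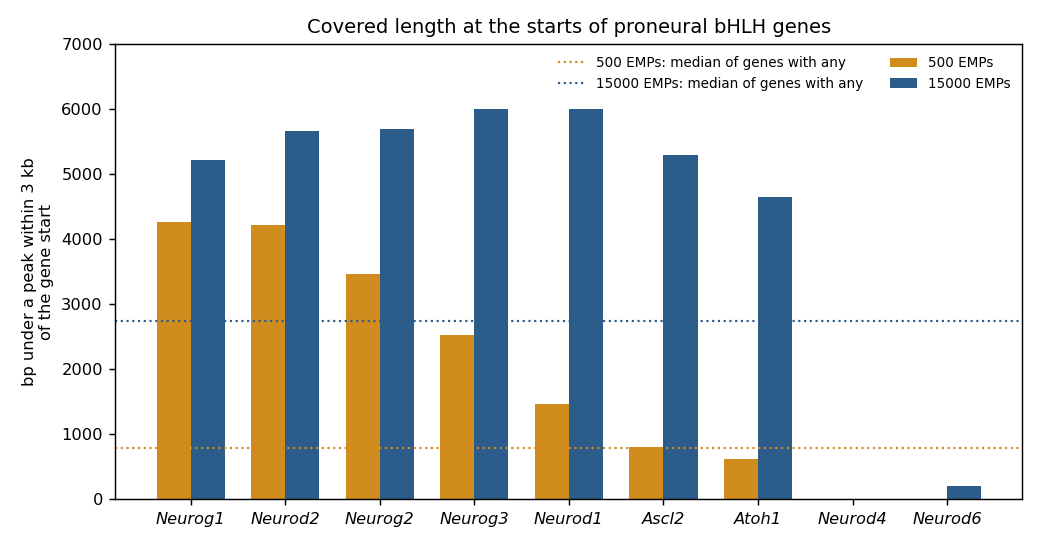
Length under an H3K27me3 peak within 3 kb of the start of each gene, in bp of 6001, for 500 EMPs (orange) and 15000 EMPs (blue), with dotted lines at the medians of genes that have any covered base there (789 and 2743 bp). Bars fall from 4254 bp at Neurog1 to 608 bp at Atoh1 with 500 EMPs, while the same 7 genes lie between 4650 and 6001 bp with 15000 EMPs.

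The neurogenins start neuronal or endocrine fates. Neurog1, which specifies cranial and spinal sensory neurons, is a single-exon gene at chr13:56250478-56252163 on the minus strand. Its gene and the 20 kb around it held 12 peaks covering 10721 bp with 500 EMPs and 7 peaks covering 19293 bp with 15000 EMPs. The 500-EMP library was the one that marked the start, with a peak of 1783 bp at chr13:56252085-56253867. With 15000 EMPs the start fell instead in a gap of 791 bp between peaks of 5969 and 9349 bp, the nearer of which began 159 bp after the start. Of that gap, 711 bp lay under the 500-EMP peak. The coding sequence showed the reverse, since all 732 bp lay under a peak with 15000 EMPs and 0 bp with 500 EMPs. The peak of 5969 bp that covered it was assigned in the authors' table to the long non-coding gene 4930550C17Rik and not to Neurog1, so Neurog1's own smallest distance there was 632 bp.

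Neurog2, at chr3:127633135-127635631 on the plus strand, acts in cortical, motor and epibranchial sensory neurons. It had 12 peaks over 9963 bp with 500 EMPs and 2 peaks over 18707 bp with 15000 EMPs. The 2 wide peaks, of 8068 and 10639 bp, held 4 and 7 of the 500-EMP peaks. Between them 307 bp were left free, of which 305 bp were coding, and no 500-EMP peak covered any of it. With 500 EMPs the start lay in a longer gap of 1886 bp, 721 bp from the nearest peak. A further pair of peaks lay 61440 to 64098 bp downstream of the start, inside Alpk1, where a 15000-EMP peak of 2480 bp and a 500-EMP peak of 137 bp came within 42 bp of each other without overlapping.

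Neurog3, at chr10:62133090-62134763 on the plus strand, specifies the endocrine progenitors of the pancreas and gut. Its 3 peaks covered 2876 bp with 500 EMPs, and 1 peak of 9277 bp covered the whole gene with 15000 EMPs. With 500 EMPs the widest of the 3, 2179 bp, began 658 bp after the start and covered 357 of 642 coding bp. Neurog3 lies within Fam241b, a gene on the opposite strand whose own start window was covered by 0 bp in both libraries. Upstream of Neurog3, 2 peaks of 251 and 1722 bp were found with 15000 EMPs only, between positions -24666 and -22417 bp relative to its start and also within Fam241b.

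The NeuroD genes follow the neurogenins in many lineages. Neurod1, which activates the insulin gene and drives islet and neuronal differentiation, lies at chr2:79452521-79456751 on the minus strand. It had 4 peaks over 1814 bp with 500 EMPs and 1 peak of 10326 bp with 15000 EMPs, which covered the whole gene. None of the 500-EMP peaks touched its coding sequence of 1071 bp. Cerkl, a ceramide kinase-like gene, starts at position 79456785 on the same strand, 34 bp from the Neurod1 start, and its start window held the same 1461 and 6001 bp, so peaks there cannot be assigned to 1 of the 2 genes. Neurod2, a factor of cortical and hippocampal neurons at chr11:98325415-98329648 on the minus strand, had the largest covered length of the 9 in both libraries. It had 17 peaks over 15671 bp with 500 EMPs, and 8 peaks over 33384 bp with 15000 EMPs, which was 35.4% and 75.5% of the gene with its flanks. With 15000 EMPs it also held the widest peak of the group, 13459 bp at chr11:98314653-98328111, number 75 by width in the whole list. Part of the covered length of Neurod2 lies before and inside Ppp1r1b, the next protein-coding gene 18756 bp away, and with 15000 EMPs over its start. The start window of Ppp1r1b was covered by 2093 bp with 500 EMPs and 5371 bp with 15000 EMPs.

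Neurod4 and Neurod6 stood apart from Neurod1 and Neurod2. Neurod4, which acts with other bHLH factors in the retina and hindbrain, lies at chr10:130268152-130280240 on the minus strand and had 0 peaks in the gene or within 20 kb in both libraries. The nearest peak was 1345735 bp from its start with 500 EMPs and 1344473 bp with 15000 EMPs. Neurod6, a marker of cortical pyramidal neurons at chr6:55677822-55681263 on the minus strand, had 0 peaks with 500 EMPs and 1 peak of 1488 bp with 15000 EMPs. This peak, at chr6:55676973-55678460, overlapped the last 639 bp of the gene and 0 bp of its coding sequence. It came no nearer than 2803 bp to the start, and its size was below that of every peak covering a start of the other members with 15000 EMPs. The nearest 500-EMP peak was 228279 bp from the Neurod6 start.

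Atoh1 and Ascl2 belong to the atonal and achaete-scute branches of the family. Atoh1, needed for inner ear hair cells, cerebellar granule neurons and secretory cells of the gut, is a single-exon gene at chr6:64729125-64731245 on the plus strand. Its 5 peaks covered 3221 bp with 500 EMPs, and all of them lay across or beyond the 3′ end of the gene, the first beginning 1655 bp after the start. With 15000 EMPs a peak of 8390 bp ran from 1649 bp before the start to 6740 bp after it, over the whole gene. A second peak of 305 bp followed. The authors assigned 3 more distant 15000-EMP peaks to Atoh1, of 301, 833 and 2455 bp, and none of them overlapped a 500-EMP peak.

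Ascl2, an imprinted gene that trophoblast and intestinal stem cells need, lies at chr7:142966829-142969264 on the minus strand. With 500 EMPs it had 1 peak of 796 bp, from -1424 to -629 bp relative to the start, and no base of the gene was covered. With 15000 EMPs a peak of 5286 bp covered the whole gene, and a second of 1029 bp lay downstream. Over the gene with its flanks, the ratio of covered length between the libraries was largest at Ascl2, 7.93 times, from 796 to 6315 bp, among the 7 genes covered in both. Neurog1 showed the smallest at 1.80 times. The ratio was 1.88 at Neurog2, 2.13 at Neurod2, 2.70 at Atoh1, 3.23 at Neurog3 and 5.69 at Neurod1. The order depended on the window, since within 3 kb of the start Atoh1 had the largest ratio, 7.65 times, and Ascl2 6.64. With flanks, the ratio over the 9 genes together was 2.39, from 45062 to 107485 bp, and over the whole genome 4.03. The lowest ratios, at Neurog1, Neurog2 and Neurod2, were those of the genes with the greatest covered length with 500 EMPs, the denominator of the ratio.

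Most of the length covered with 500 EMPs lay inside the wide domains of the other library. The 9 genes had 57 of the 10223 peaks with 500 EMPs and 35 of the 15282 with 15000 EMPs, counting peaks within 20 kb and peaks the authors assigned to these genes from farther away. Their median width was 733 bp with 500 EMPs, against 363 bp over all peaks, and 2146 bp with 15000 EMPs, against 770 bp. The widest was 2852 bp with 500 EMPs. With 15000 EMPs 10 of the 35 were wider than 5 kb, next to 875 of all 15282, and each of these 10 held between 1 and 7 peaks of the 500-EMP list, with a median of 4. Of the 57 peaks, 53 shared 1 bp or more with a 15000-EMP peak, which was 93.0% (83.3 to 97.2%, 95% Wilson interval), next to 91.2% of all peaks in that list. Of the 35 peaks, 18 did so with a 500-EMP peak, which was 51.4% (35.6 to 67.0%), next to 32.2% of all. These intervals cover counting error only and treat neighbouring peaks as independent. A wider peak also meets the limit of 1 bp more readily, and the member peaks had the larger median widths. In bases, 42686 bp at these loci lay under a peak in both libraries, which was 94.7% of the 500-EMP length and 39.7% of the 15000-EMP length.

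The member peaks found in 1 library alone had lower median widths than those with a counterpart, though the ranges overlapped. Part of this is built into the measure, since a wider peak meets the limit of 1 bp more readily. The 17 member peaks of the 15000-EMP list without a counterpart had a median width of 833 bp (251 to 2811 bp), whereas the 18 with one had a median of 5628 bp (307 to 13459 bp) and all peaks of that list 770 bp. The 4 peaks of the 500-EMP list without a counterpart had a median of 233 bp (137 to 412 bp) and lay at Neurog1, Neurog2 and Atoh1, and the 53 with one had a median of 746 bp (137 to 2852 bp). The smallest width in the 500-EMP list, 137 bp, was that of 6 member peaks.

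With 15000 EMPs the covered stretch around the start was broken at Neurog1, Neurog2 and Neurod2. The gap of 791 bp at Neurog1 was described above. At Neurod2 a gap of 343 bp, 225 bp of it coding, separated the peak of 13459 bp from the peak of 4651 bp that covered the start. Where gaps of both libraries met, no peak of either covered the sequence. Such shared gaps measured 80 bp at Neurog1, 307 bp at Neurog2 and 224 bp at Neurod2, and those at Neurog2 and Neurod2 were almost wholly coding. Their GC content was 71.0% at Neurog2 and 70.5% at Neurod2, whereas the 15000-EMP peaks beside them had 49.2 and 45.6% at Neurog2 and 52.4 and 54.0% at Neurod2. The gap holding the Neurog1 start had a GC content of 66.1%, and the peaks on its sides 50.3 and 51.3%. GC content thus moved with these 15000-EMP gaps, and its part in them was not tested. Gaps in the 500-EMP list were not all GC-rich, with 48.7% over the 2387 bp that held the Neurod1 start, 47.0% over 421 bp at Neurog2 and 39.8% over 738 bp at Atoh1. Others were, with 65.6% over the 1886 bp that held the Neurog2 start, 61.5% over 1319 bp at Neurog1 and 68.65% over 453 bp at Neurod2. The rest lay between 41.7 and 57.5%. A gap in a peak list does not show that the mark is absent there, because the files used here give no read counts.

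The coding sequence left free in both libraries is shown for these 2 genes, on the gene's own strand with CpG in capitals. That of Neurog2 begins at the start codon and is its first 250 bases (25 CpGs), and that of Neurod2 is the whole shared gap of 224 bases (26 CpGs).
Neurog2, chr3:127633729-127633978, plus strand: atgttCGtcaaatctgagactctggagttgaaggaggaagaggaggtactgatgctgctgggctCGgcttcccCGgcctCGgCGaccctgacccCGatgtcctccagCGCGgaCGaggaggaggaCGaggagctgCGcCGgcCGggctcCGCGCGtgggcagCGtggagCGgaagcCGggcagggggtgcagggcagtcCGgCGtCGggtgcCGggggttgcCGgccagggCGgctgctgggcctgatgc
Neurod2, chr11:98328112-98328335, minus strand: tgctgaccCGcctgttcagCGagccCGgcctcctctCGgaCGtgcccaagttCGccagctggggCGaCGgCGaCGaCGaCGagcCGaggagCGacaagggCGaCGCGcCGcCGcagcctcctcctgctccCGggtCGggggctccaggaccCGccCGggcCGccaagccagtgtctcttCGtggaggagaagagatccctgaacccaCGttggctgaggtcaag

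CpG content at the start, which the choice of genes did not use, was next set beside the peaks. The measure was the number of CpGs observed over that expected from the base composition, within 500 bp of the gene start. The 7 genes with peaks in both libraries had values from 0.455 (Neurod2) to 0.851 (Neurog2), with Neurog3 at 0.506, Ascl2 at 0.631, Atoh1 at 0.649, Neurod1 at 0.679 and Neurog1 at 0.756. Neurod4 and Neurod6 had 0.200 and 0.205, with 11 and 9 CpGs in that stretch, and lay below all the other members. The median over all protein-coding genes was 0.552, so Neurod2 and Neurog3 lay below it and the other 5 above. Genes with a peak within 3 kb had a median of 0.657 with 500 EMPs and 0.638 with 15000 EMPs, and genes without one 0.522 and 0.499. Among the 4989 genes at or below the value of Neurod4, 1.72% had a peak with 500 EMPs and 3.97% with 15000 EMPs. Neurod6, with its 15000-EMP peak at the 3′ end, was 1 of 209 genes with a 15000-EMP peak among the 5147 at or below its own value. With 9 genes chosen by family these values are a description.

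**Figure D3:**
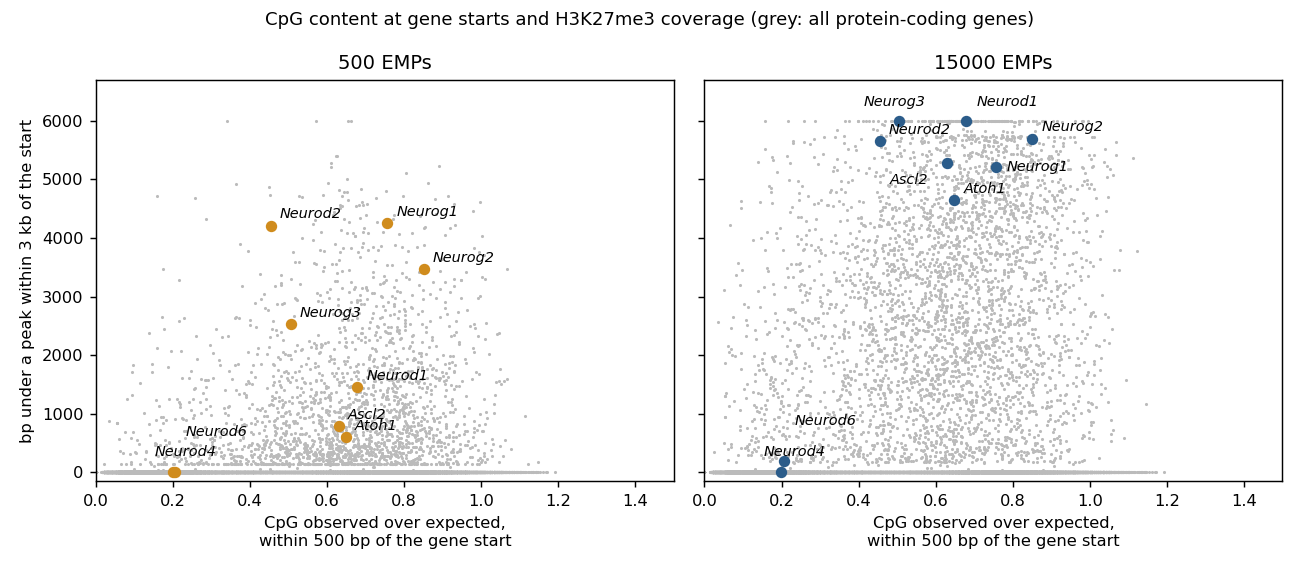
CpG observed over expected within 500 bp of the gene start (x axis) against bp under an H3K27me3 peak within 3 kb of it (y axis), for all protein-coding genes (grey) and the 9 proneural bHLH genes (coloured), with 500 EMPs at the left and 15000 EMPs at the right. Neurod4 and Neurod6, at 0.200 and 0.205, lie at or near 0 bp, and the other 7, from 0.455 to 0.851, have at least 608 bp with 500 EMPs and at least 4650 bp with 15000 EMPs.

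CpGs were also denser under the peaks than beside them at most of these loci. With 15000 EMPs, Ascl2 had 34.7 CpGs per kb under peaks and 7.34 per kb outside them, and Atoh1 30.6 and 6.46. Neurod1 had 24.3 and 5.99, Neurog3 26.9 and 9.04, Neurog2 26.0 and 11.4, and Neurog1 20.8 and 12.5. At Neurod2, where peaks filled most of the locus, the values were close to each other, 23.1 and 21.8. With 500 EMPs the values were also close at Neurod2 (22.5 and 23.0) and at Ascl2 (11.3 and 11.4). The gene body and flanks of Neurod4, with no peak, had 3.67 CpGs per kb.

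Short motifs were searched on both strands of the 250 bases before the start. The general E-box CANNTG was found before 6 of the 9 genes, all but Neurog2, Neurod4 and Atoh1, and before 64.1% of all protein-coding genes. Among its forms, which match CANNTG too, the sequence CAGCTG was found before Neurog3 and CAGATG before Neurod1 and Neurod2, and before 12.3 and 13.0% of all genes. TATAAA was found before 0 of the 9 and 11.5% of all. A match to so few letters is no evidence of a binding site, and a window without one says nothing on the factor.

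Other genes of the same pathway were then counted, in lists that held none of the 9. Of 6 other proneural genes, 4 were counted by the limit of 3 kb with 500 EMPs and 5 with 15000 EMPs, next to 9.78 and 16.8% of all genes. Ascl3 lacked one in both libraries and Ascl4 only with 500 EMPs. Of 9 other neural and pancreatic bHLH genes, 8 had a peak with 500 EMPs and 9 with 15000 EMPs, the exception being Nhlh1. Olig2, which specifies motor neurons and oligodendrocytes, was covered over 4223 and 5641 bp, and Ptf1a, a factor of the pancreas and of inhibitory neurons, over 3793 and 5669 bp. The list medians were 2445 and 5345 bp.

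Partners and inhibitors of the proneural factors came next. Of 7 E-protein and Id genes, Id2 and Id3 had a peak in both libraries and Id4 with 15000 EMPs. At Id4 a further 228 bp around the start lay under a 500-EMP peak that the table assigns elsewhere. The E-protein genes Tcf3, Tcf4 and Tcf12, whose products pair with bHLH factors in most cells, had 0 bp covered in either, as had most protein-coding genes. Of 17 Notch pathway genes, 9 had a peak with 500 EMPs and 11 with 15000 EMPs. The ligand gene Dll1 (3444 and 6001 bp around the start) and the repressor gene Hes5 (2783 and 5809 bp) were the most covered, and Jag2 and Heyl were counted with 15000 EMPs alone. None of the receptor genes Notch1, Notch2, Notch3 and Notch4 had a peak within 3 kb in either library, nor had Hes6 and Hes7. Of 12 genes that act downstream of proneural factors in neurons, the same 8 had a peak in both libraries, and Myt1, St18, Elavl4 and Dcx did not. With 500 EMPs the most covered of the 8 were Scrt2 (3147 and 4523 bp) and Insm1 (2590 and 5278 bp). The least covered was Tubb3 (137 and 4657 bp). The medians of the list were 672 and 2710 bp.

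**Figure D4:**
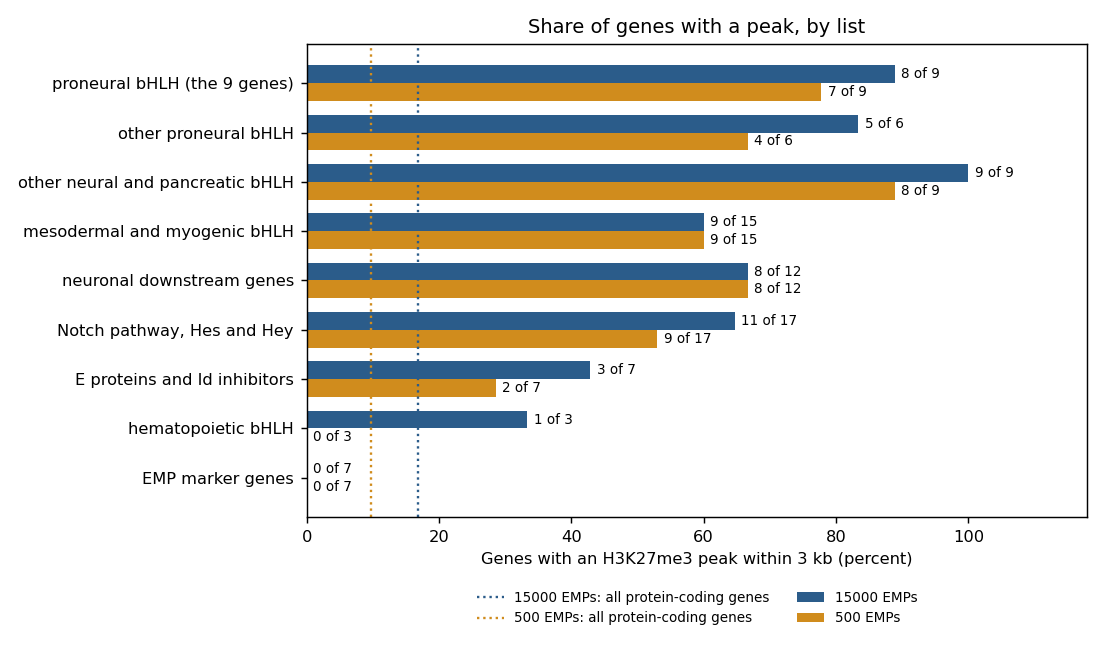
Percent of the genes of each list with an H3K27me3 peak within 3 kb, for 15000 EMPs (blue) and 500 EMPs (orange), with the number of genes beside each bar and dotted lines at the share of all protein-coding genes (9.78 and 16.8%). Bars reach 8 of 9 and 7 of 9 for the proneural genes, 9 of 15 for mesodermal bHLH genes in both libraries, and 0 of 7 for EMP markers in both.

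Mesodermal and myogenic bHLH genes, the part of the family nearest in function outside the nervous system, served as a comparison. Of 15, the same 9 had a peak in both libraries, 9 of 15 next to 7 and 8 of 9 for the proneural genes. Their median covered length around the start was 553 bp with 500 EMPs and 3814 bp with 15000 EMPs, next to 1461 and 5286 bp for the 9 genes and 269.5 and 3839 bp for the 6 other proneural genes. With 500 EMPs the other proneural genes thus had the lowest of these medians. Hand1, a factor of heart and trophoblast, was covered over 6001 and 5721 bp. Myf5, Myf6, Myog, Mesp2, Msgn1 and Scx had no peak. The difference between the lists was not tested, as lists chosen by name give no sample of genes. Among the 3 hematopoietic bHLH genes, Tal1 and Lyl1, which are active in blood progenitors, had 0 bp covered in both libraries, and Tal2 had 0 bp with 500 EMPs and 3710 bp with 15000 EMPs. Only 9.92% of all protein-coding genes had any covered base there with 500 EMPs and 17.0% with 15000 EMPs. A value of 0 bp at so few genes is thus the usual state and no result about blood genes.

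Outside these lists, the genes whose pair of covered lengths came nearest to the median pair of the proneural genes (1461 and 5286 bp) were Klhl29 (1449 and 5290 bp), Adamts2 (1442 and 5265 bp), Mcidas (1437 and 5248 bp), Gpr50 (1404 and 5292 bp) and Agpat3 (1380 and 5293 bp). The measure was the straight-line distance between pairs, from 12.6 bp for Klhl29 to 81.3 bp for Agpat3, over 2 libraries only.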

How the data were processed

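H3K27me3 CUT&RUN of mouse E10.5 yolk sac EMPs was used as deposited. Per the submitters' processing notes and the study's methods, the authors aligned reads to mm10 (GRCm38) with Bowtie2 2.2.1 and called broad peaks with MACS2 2.1.2, for each H3K27me3 library separately, at a p-value threshold of 0.01 (500 EMPs) or 0.05 (15000 EMPs). The reporting summary's command listing swaps the cell numbers, and the lists were taken as labelled. The deposited files used here give peak positions and annotated genes with a distance, all in bp, with no score or count, so no precision could be derived from depth. The reporting summary gives a lower depth and a much lower alignment rate for 500 EMPs, and this was not corrected for. The matching IgG library served as the control in each call and was not otherwise analysed here.

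Positions were read as 1-based coordinates. Genes, exons and coding sequence came from GENCODE vM21 and sequence from the RefSeq copy of GRCm38, in which 0 peaks ran past a chromosome end. The distance column is measured to the gene's nearer end for some peaks, so overlap with starts was also computed. Starts were those of the gene record, the minimum overlap was 1 bp, and no peaks were joined. Analyses were run in Python 3.11.15 with numpy 2.4.6, pysam 0.24.0 and samtools 1.23.1, and figures in matplotlib 3.10.9. The interval code was tested on simulated data. Samples were grouped by their titles. With 1 library per group no test was made.

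Members and lists were chosen with earlier results of these data known. Named were all 9 members, protein-coding genes within 20 kb of them, the smaller side of each list with a few further examples chosen after their values were seen, and the 5 genes nearest to the members' median pair of covered lengths. Zgrf1, 15112 bp from Neurog2, had 0 bp covered in its start window. Alternatives changed the distance limit, the flank, the window, the joining of peaks and the overlap. Some values of 2 further genes are not reported here.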

Additional observations from a re-analysis of the deposited data

How the results depend on the processing

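The counts of 7 and 8 of 9 genes with a peak were reached under all their alternatives, and so were the counts of the 14 list results within 1.5 times. Of 56 alternative values, 43 stayed close to the reported one (counts and lengths within 1.5 times, shares within their 95% counting interval) and 13 did not. Joining changed peak numbers at the loci most: with 500 EMPs, 54 peaks became 23 when peaks within 1 kb were joined and 10 within 3 kb, and with 15000 EMPs, 24 became 12 and 10. A flank of 50 kb raised the 15000-EMP number to 44. The median covered length around the start moved with the window, by construction: within 1 kb it was 280 bp (500 EMPs) and 2001 bp (15000 EMPs, the whole window), and within 5 kb 9005 bp with 15000 EMPs. Of the 500-EMP peaks, 98.2% had a counterpart when peaks within 1 kb counted and 0% when at least 50% of both peaks had to be shared. Of the 15000-EMP peaks, 68.6% had one within 1 kb, 14.3% when at least 50% of the peak itself had to be covered, and 0% when at least 50% of both had to be. No paired analysis was possible because each group had 1 library. The files used here give no reads or peak heights, aligned depth was lower with 500 EMPs and there are no replicates, so an absent peak, as at Neurod4, cannot be told apart from one below detection.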
